A study of Mus musculus with 14 samples.

Results

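Interferon response genes were examined in RNA-seq tables from mouse corpus callosum and from oligodendrocytes differentiated in culture, each comparing libraries labelled Qk-KO with libraries labelled WT. The set is a list of 38 gene symbols of the interferon pathway, looked up in both tables, out of 46983 genes listed in each table, and every one of the 38 was found once in both. Quaking, the product of Qk, is an RNA-binding protein of myelinating glia. Mice of an FvB/C57BL6 hybrid strain carrying Plp-CreERT2, a tamoxifen-activated Cre driven in oligodendrocyte-lineage cells, received tamoxifen at 8 weeks of age, and callosum was taken 4 days later. The 4 callosum libraries labelled Qk-KO came from animals with QKLoxP/LoxP and the 4 labelled WT from animals with QKLoxP/+, so that the controls carried the Cre, the drug and 1 floxed copy. The cultures (3 libraries per genotype, passages 7, 12 and 13) were neural stem cells differentiated in Neurobasal medium with B-27, GlutaMAX-I, 100 ng/ml IGF-1 and 50 ng/ml T3. Their descriptions carry 40HT for each library labelled Qk-KO and EtOH for each labelled WT, so that treatment and genotype cannot be told apart. No label says whether callosum libraries came from separate animals or how the cultures were derived, and p-values therefore measure the spread between these libraries. In culture, each Qk-KO library shares its passage and the rest of its description with 1 WT library. The fitted model has no term for such pairs.

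Type I interferons bind the receptor made of Ifnar1 and Ifnar2 and, through the kinases Jak1 and Tyk2, drive a complex that holds Stat2 and Irf9 to response elements in the promoters of antiviral genes. Several of these genes, the Ifit genes among them, can also be switched on directly by Irf3 after RNA sensors such as Ifih1 and Ddx58 detect viral RNA. Guanylate-binding proteins respond strongly to interferon gamma as well, and microglia keep Irf8 active as part of their identity. In healthy brain most of its genes are kept at low levels.

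The library columns hold fitted means of a model that has genotype as its only term, so that within a genotype the libraries differ by depth alone. A fitted level is therefore given once per genotype, as a fitted CPM (share of the library's counts) or, where genes are compared, a fitted TPM (scaled by exonic length as well). All errors are the standard errors (SE) of the authors' deposited table, and a gene passed when its adjusted p there was under 0.05. Depth, as the total of fitted counts, ranged from 15048646 to 27666519 over the callosum libraries and from 38325833 to 48912999 over the cultures. Qk itself stood at 0.32 ± 0.12 log2 units in callosum (adjusted p = 0.162) and rose by 0.66 ± 0.14 in culture in the authors' deposited table. Reads over the whole gene enter that value, which therefore checks neither the deletion nor the labels.

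In culture, some members passed and most tested members did not, and these groups were not tested against each other. All 4 Ifit genes, the 3 guanylate-binding protein genes, Rsad2 and Parp14 fell in libraries labelled Qk-KO, while the receptors, Stat2, every Irf gene and the RNA sensors did not pass. Mx1 rose. Of the 32 members tested there, 9 fell (28.1%) and 1 rose (3.13%), against 15.2% lower and 13.3% higher among all 17503 tested genes, 28.6% in either direction. The median member change was -0.33 log2 units and 28 of 32 values were negative, while the median over all tested genes was 0.01 and 48.9% were negative. When libraries were scaled to their totals, the split over all genes went from 2336 higher and 2667 lower to 3054 higher and 2296 lower, while the members stood at 2 higher and 9 lower. Members set apart as close copies were Ifit3, Ifit3b, Oas1a, Oasl1, Oasl2, Gbp2, Gbp3, Gbp7, Mx1 and Mx2. With these left out, 4 of 24 tested members fell (16.7%) and 0 rose, a share near the 15.2% of all genes. This takes out the Gbp genes that fell and Mx1, the only riser, and is not a measure of shared reads alone. Against a Student reference with 4 degrees of freedom in place of the normal one, 0 of all 17503 genes passed in culture, members included. In callosum, 1 of 31 tested members passed, Irf8, which rose. Irf8 missed the threshold against a Student reference with 6 degrees of freedom (adjusted p = 0.0920), where 8 genes of the whole table passed. The share that rose is 3.23% against 2.09% higher and 0.231% lower (2.32% in either direction) among 19935 tested genes. Without adjustment, 4 callosum members had a p under 0.05. Here 22 of 31 values were positive (48.2% over all tested genes) and the median was 0.18 against -0.01.

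**Figure D1:**
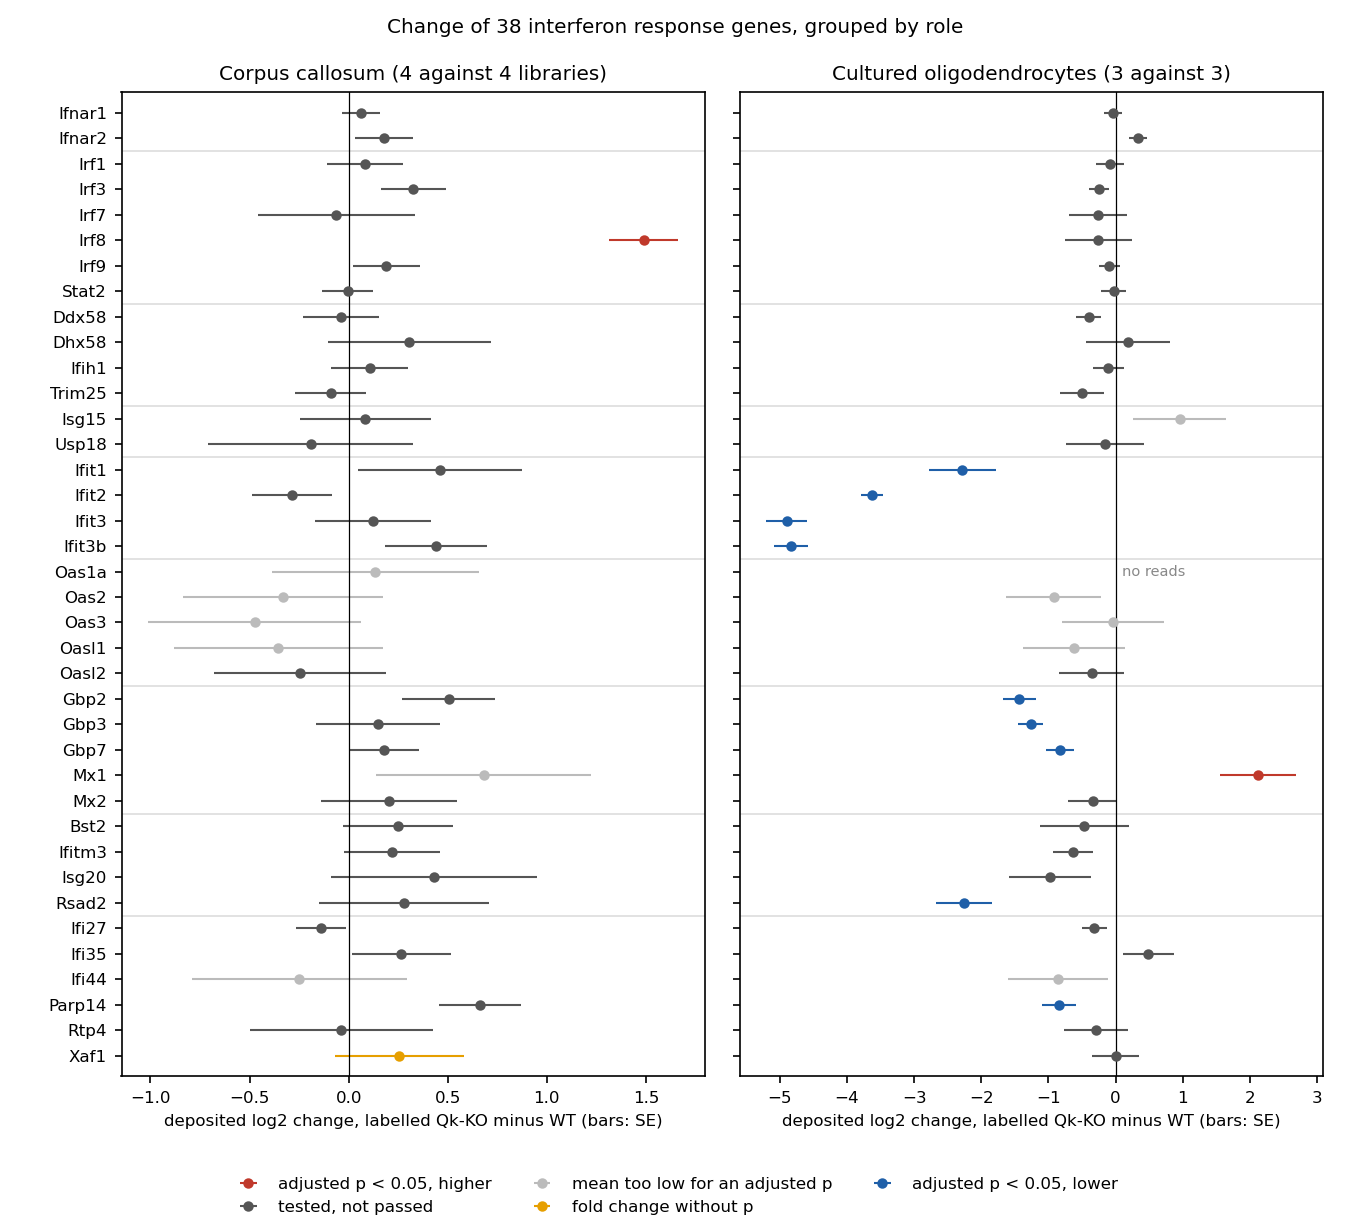
Deposited log2 change (labelled Qk-KO minus WT, horizontal axis, different range in each panel) with its SE for the 38 genes in callosum (left) and culture (right), grouped by role from receptors at the top to other induced genes at the bottom. In callosum Irf8 stands apart at 1.49, and in culture the 4 Ifit genes lie between -4.90 and -2.29.

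The Ifit genes encode tetratricopeptide-repeat proteins that bind viral RNA and block its translation. Ifit2 (chromosome 19, 34550694 to 34576419, plus strand, GRCm38) had fitted counts of 3505, 2746 and 2990 in the WT cultures and of 296, 273 and 254 in those labelled Qk-KO. The 3 values within each genotype differ by depth alone, and the levels are 36.8 TPM in WT and 3.00 TPM in Qk-KO. Ifit2 had the highest fitted TPM of all 38 members in WT cultures. It fell 12.4-fold (log2 -3.63 ± 0.16, adjusted p = 3.04e-105, authors' deposited table), and its p ranks 1 among all genes of the culture table.

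Ifit3 (chromosome 19, 34583531 to 34588731, plus strand) had fitted counts of 583, 457 and 497 in WT cultures and of 20, 19 and 18 in those labelled Qk-KO. It fell 29.8-fold (log2 -4.90 ± 0.30, adjusted p = 3.52e-55, authors' deposited table). Ifit3b (chromosome 19, 34607970 to 34613401, plus strand), a close copy of Ifit3, had fitted counts of 907, 711 and 774 against 33, 31 and 29 and fell 28.4-fold (log2 -4.83 ± 0.25, adjusted p = 1.28e-77, authors' deposited table). Their p ranks 18 and 5 in the table. Of the distinct 50-base words in Ifit3 transcripts, 51.2% also occur in Ifit3b, and 44.5% of those of Ifit3b occur in Ifit3, so that the division of reads between them is uncertain. Read together, which does not depend on that division, the pair stood at 30.5 CPM in WT and 1.11 CPM in Qk-KO cultures, 27.4-fold apart. Ifit2 shares no 50-base word with any other gene.

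Ifit1 (chromosome 19, 34640871 to 34650009, plus strand), which binds RNA caps that lack a methyl mark, was scarce. Its fitted counts were 50, 39 and 43 in WT cultures and 11, 10 and 9 in those labelled Qk-KO, and it fell 4.87-fold (log2 -2.29 ± 0.50, adjusted p = 4.87e-05, authors' deposited table). Summed over the family, the level was 70.0 TPM in WT and 4.30 TPM in Qk-KO cultures, and 27.1 and 27.8 TPM in callosum.

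**Figure D2:**
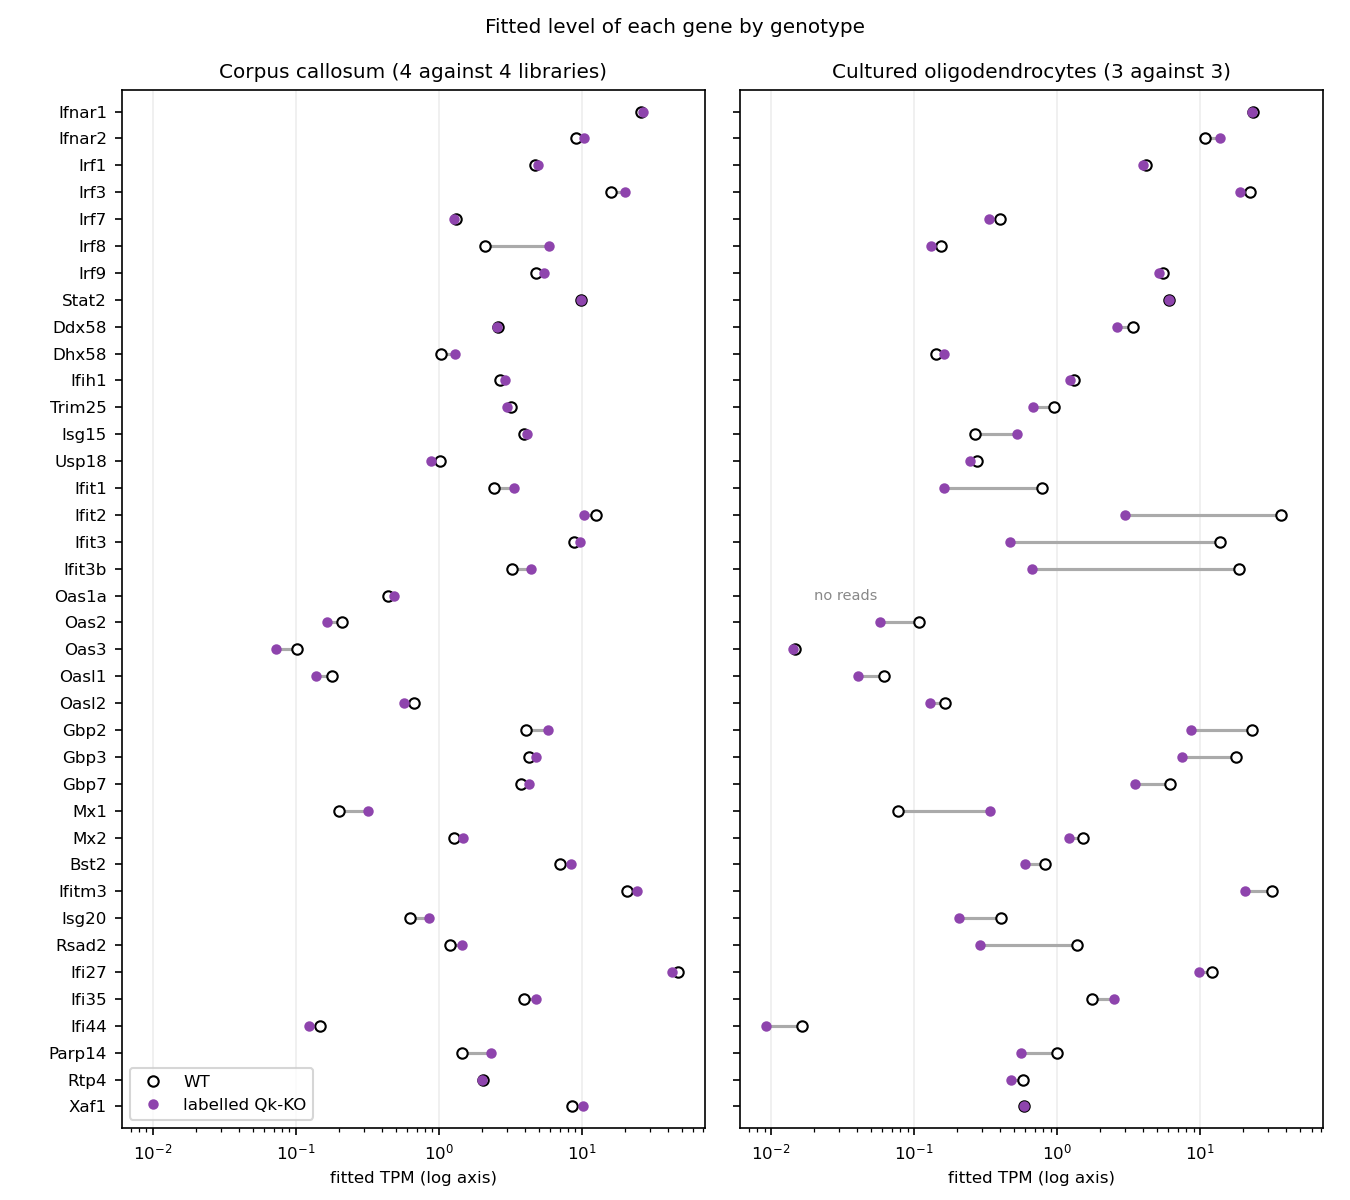
Fitted TPM (log axis) of each member in WT (open circles) and labelled Qk-KO (filled circles) libraries of callosum (left) and culture (right); a point is a model mean per genotype and carries no replicate error. In WT cultures Ifit2 (36.8 TPM) and Ifit3b (18.7 TPM) sit beside the receptor gene Ifnar1 (23.5 TPM), while Isg15, Usp18, Irf7 and the Oas genes lie below 1 TPM.

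The promoters of these genes were searched for the core letters of the interferon-stimulated response element, GAAA, any 2 bases and GAAA again, on either strand, in RefSeq windows from 250 bases before to 50 after each start (GRCm38.p6). Of the 38 members 30 matched by symbol; Mx1, Mx2, Oas2, Ifi27, Dhx58, Usp18, Parp14 and Rtp4 did not. The letters occurred in 15 of the 30 (50.0%), against 3.99% of 27025 genes with a window. Among members that fell in culture, 7 of 8 matched genes held them, and among tested members that did not pass, 5 of 17 did. The STAT dimer letters TTCNNNGAA, which read the same on both strands, occurred in 11 of the 30 (36.7%) and in 9.55% of all genes, in 2 of 8 members that fell and in 8 of 17 that did not pass. No match says only that these letters are absent from this window, and a match is not a measured binding site. The 200 bases before the start are shown 5′ to 3′ on the gene's strand, with response element letters in capitals, for the Ifit genes, which fell most, for the other members that fell and have a match, and for Isg15, which did not fall and has 3 overlapping matches.
Ifit2: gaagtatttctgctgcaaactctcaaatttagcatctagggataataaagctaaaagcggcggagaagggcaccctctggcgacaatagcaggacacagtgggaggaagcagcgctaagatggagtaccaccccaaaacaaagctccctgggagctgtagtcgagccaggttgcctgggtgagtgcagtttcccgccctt
Ifit3: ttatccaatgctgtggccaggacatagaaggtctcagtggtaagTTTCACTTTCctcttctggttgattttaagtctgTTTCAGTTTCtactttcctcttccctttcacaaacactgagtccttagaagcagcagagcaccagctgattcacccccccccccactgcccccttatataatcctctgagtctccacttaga
Ifit3b: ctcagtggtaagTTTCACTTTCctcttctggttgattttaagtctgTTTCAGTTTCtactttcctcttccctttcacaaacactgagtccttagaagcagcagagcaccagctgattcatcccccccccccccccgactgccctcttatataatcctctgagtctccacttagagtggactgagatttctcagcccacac
Ifit1: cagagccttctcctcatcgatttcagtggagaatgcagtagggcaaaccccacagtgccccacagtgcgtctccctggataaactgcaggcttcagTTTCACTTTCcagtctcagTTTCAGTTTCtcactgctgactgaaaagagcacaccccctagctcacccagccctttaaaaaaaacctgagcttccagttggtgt
Gbp2: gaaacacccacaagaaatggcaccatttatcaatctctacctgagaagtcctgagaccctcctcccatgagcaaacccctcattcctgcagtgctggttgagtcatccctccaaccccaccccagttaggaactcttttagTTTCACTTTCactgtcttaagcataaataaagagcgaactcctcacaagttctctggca
Gbp3: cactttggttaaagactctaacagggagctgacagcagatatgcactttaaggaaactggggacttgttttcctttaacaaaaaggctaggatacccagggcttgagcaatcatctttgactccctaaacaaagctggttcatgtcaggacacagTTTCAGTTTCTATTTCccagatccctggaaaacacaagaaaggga
Gbp7: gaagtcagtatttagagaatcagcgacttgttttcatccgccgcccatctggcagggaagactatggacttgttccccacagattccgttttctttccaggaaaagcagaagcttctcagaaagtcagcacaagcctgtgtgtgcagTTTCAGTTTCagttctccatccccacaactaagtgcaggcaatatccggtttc
Rsad2: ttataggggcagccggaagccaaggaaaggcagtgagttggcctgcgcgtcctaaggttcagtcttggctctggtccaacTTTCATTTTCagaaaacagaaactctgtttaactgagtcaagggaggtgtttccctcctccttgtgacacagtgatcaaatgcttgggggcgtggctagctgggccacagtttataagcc
Isg15: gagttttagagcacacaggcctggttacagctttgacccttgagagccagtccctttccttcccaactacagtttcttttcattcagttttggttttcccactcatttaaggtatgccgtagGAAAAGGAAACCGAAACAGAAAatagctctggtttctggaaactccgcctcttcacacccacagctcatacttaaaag

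The stretches lie at chr19:34550494-34550693 for Ifit2, chr19:34583329-34583528 for Ifit3, chr19:34607757-34607956 for Ifit3b, chr19:34640689-34640888 for Ifit1, chr3:142620463-142620662 for Gbp2, chr3:142559844-142560043 for the first of 2 Gbp3 starts and chr3:142530136-142530335 for Gbp7, all on the plus strand. Rsad2 (chr12:26456453-26456652) and Isg15 (chr4:156200819-156201018) are on the minus strand. Ifit3 and Ifit3b carry the same pair of matches and share an unbroken run of 119 identical bases, so that the promoters as well as the transcripts are near copies. Ifit1 has a pair of its own at -104 and -85 from the start and shares no run longer than 13 bases with Ifit3. Ifit2 has no match in either of its windows, and a STAT element match at -241, outside the stretch shown.

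**Figure D3:**
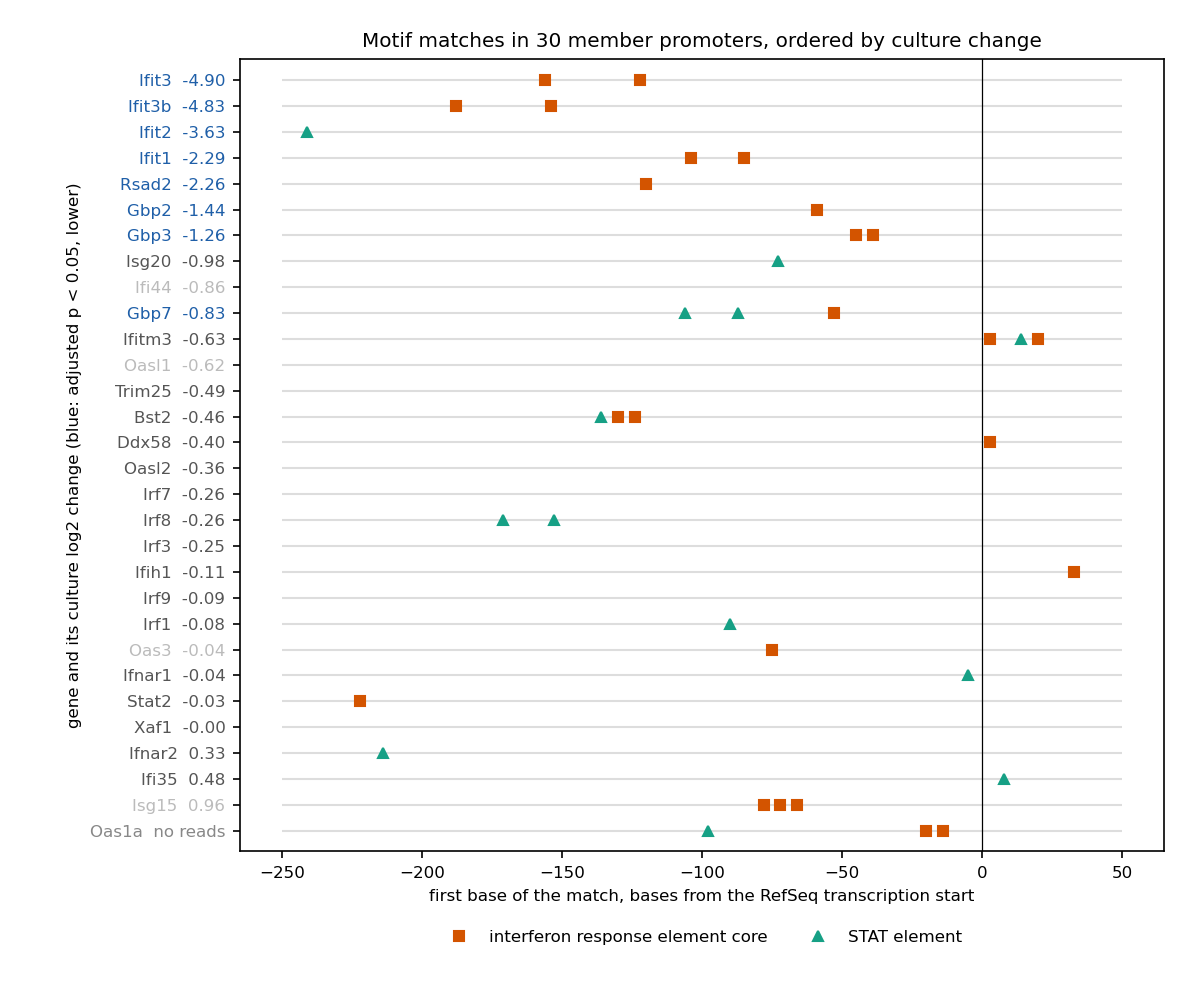
Position of response element (squares) and STAT element (triangles) matches in the RefSeq promoter windows of 30 members, in bases from the start, ordered by the culture log2 change printed beside each symbol. Of the 8 genes in blue, which fell, 7 hold a response element match, and all of these matches lie upstream of the start.

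Along chromosome 19 the neighbours of the Ifit members were read as well. Between the Ifit members lie Ifit1bl1 (-1.05 ± 0.57, adjusted p = 0.160) and Ifit1bl2 (-1.02 ± 0.45, adjusted p = 0.0773), relatives of Ifit1 that missed that threshold in the authors' deposited table. On one border Lipa, a lysosomal lipase gene, fell by 0.43 ± 0.13 log2 units and on the other Slc16a12, a monocarboxylate transporter family gene, fell by 2.74 ± 0.56 in the authors' deposited table. Farther out, Pank1 fell by 0.44 ± 0.17 and Fas stood at 0.17 ± 0.26 in the authors' deposited table, which missed that threshold. In callosum, none of the Ifit genes or of these neighbours passed except Ch25h, an oxysterol-producing enzyme gene, which rose by 1.56 ± 0.39 there (adjusted p = 0.00384, authors' deposited table) and was near the limit of detection in culture, with a mean of 0.457 normalized counts. These neighbours are all the protein-coding genes within 250 kb of the cluster.

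The guanylate-binding proteins are large GTPases that coat pathogen-containing vacuoles. Gbp2 (chromosome 3, 142620602 to 142638008) had fitted counts of 1406, 1101 and 1199 in WT cultures and 544, 501 and 466 in those labelled Qk-KO. It fell 2.71-fold (log2 -1.44 ± 0.25, adjusted p = 1.44e-07, authors' deposited table). Gbp3 had fitted counts of 1407, 1103 and 1201 against 614, 566 and 527 and fell by 1.26 ± 0.19 log2 units, and Gbp7 (843, 660 and 719 against 497, 458 and 427) fell by 0.83 ± 0.21 in the authors' deposited table. The 95% interval of the Gbp2 change runs from -1.92 to -0.95 log2 units and does not overlap that of Ifit2, -3.95 to -3.31; that of Ifit1, -3.26 to -1.31, overlaps it. Their cluster neighbours Gbp5 (-2.12 ± 0.64) and Gbp2b (-1.48 ± 0.59) fell as well, as did Pdlim5 (-0.54 ± 0.14), while Ccbl2 (-0.45 ± 0.20, adjusted p = 0.0834), Gtf2b (0.08 ± 0.13) and Pkn2 (0.05 ± 0.13) on the far side missed that threshold in the authors' deposited table. Of the words of Gbp7, 12.7% also occur in other genes, mostly in the pseudogene Gm43802, which overlaps it on the same strand and had no reads in either table.

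**Figure D4:**
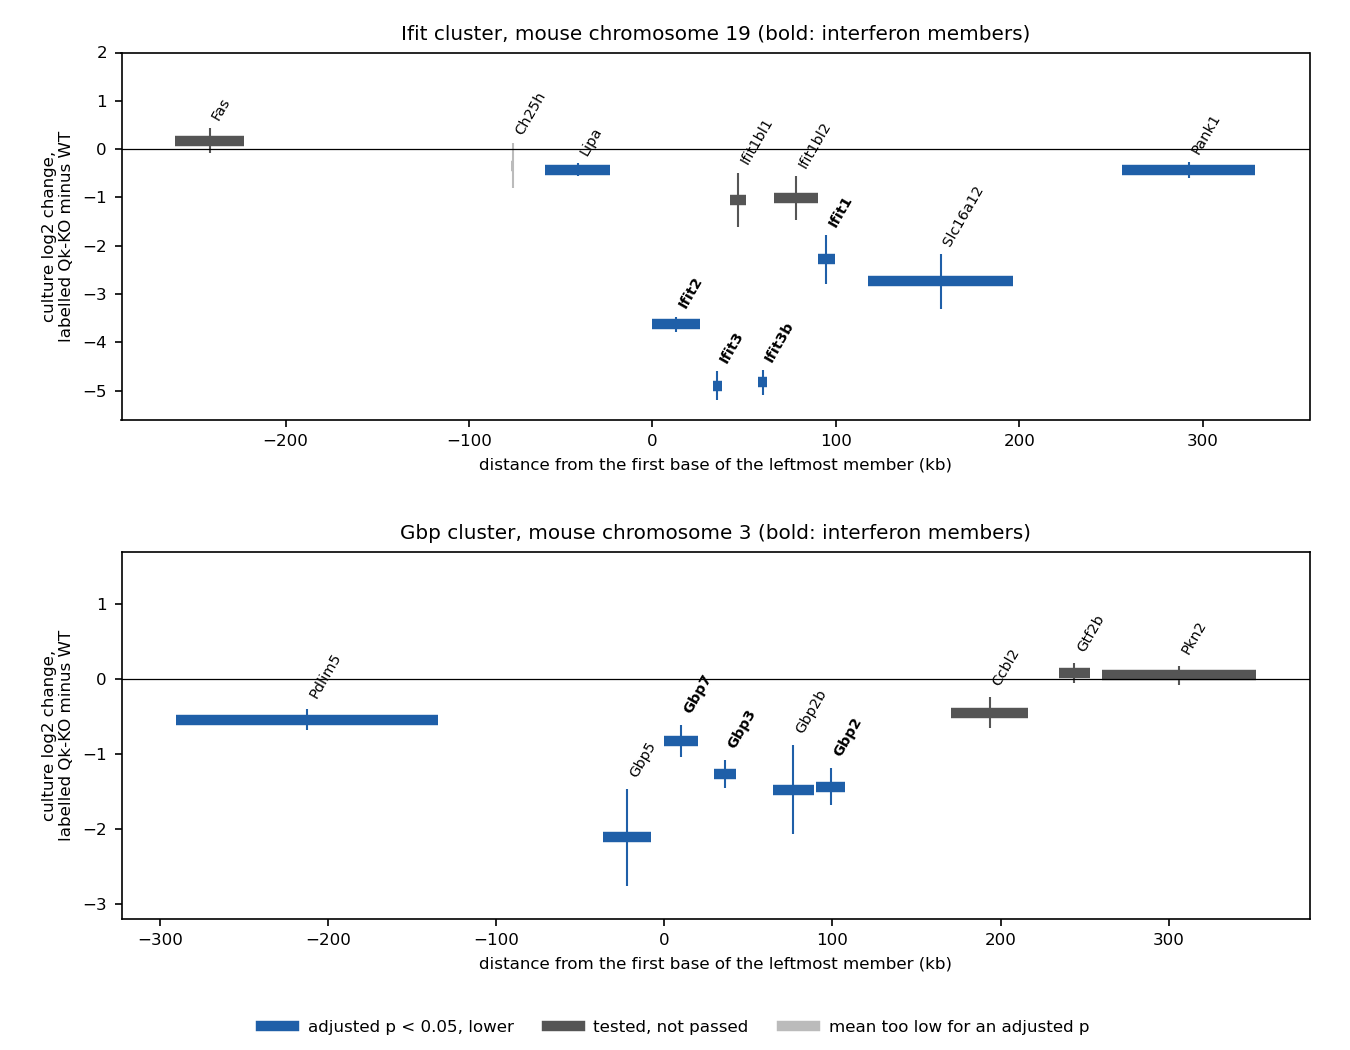
Culture log2 change (vertical axis, thin lines give the SE) of all protein-coding genes within 250 kb of the Ifit members (top) and of the 3 Gbp members (bottom), drawn as bars over each gene's extent in kb from the leftmost member. The Ifit members lie below -2 and the Gbp members between -1.44 and -0.83; of the non-members, Slc16a12 lies at -2.74, Gbp5 at -2.12 and Gbp2b at -1.48.

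The Mx genes encode dynamin-like GTPases that trap viral ribonucleoproteins, and neither passed as lower. Mx1 had fitted counts of 7, 6 and 6 in WT cultures and of 32, 30 and 28 in those labelled Qk-KO, and rose 4.36-fold, with a log2 change of 2.12 ± 0.57 in the authors' deposited table (adjusted p = 0.00129). Its rise rests on few reads, with levels of 0.0768 and 0.339 TPM. Mx2 stood at -0.34 ± 0.37 in the authors' deposited table, which missed that threshold. In callosum, Mx1 had a mean of 6.79 normalized counts, too few for an adjusted p.

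Among the other antiviral effectors, Rsad2, which makes a chain-terminating nucleotide, had fitted counts of 144, 113 and 123 in WT cultures and 31, 29 and 27 in those labelled Qk-KO. It fell 4.78-fold (log2 -2.26 ± 0.42, adjusted p = 1.13e-06, authors' deposited table). Parp14, an ADP-ribosyltransferase, fell by 0.84 ± 0.25 log2 units in culture (adjusted p = 0.00441, authors' deposited table), from fitted counts of 226, 177 and 193 to 132, 121 and 113. The membrane protein gene Ifitm3 was abundant, at 31.5 TPM in WT cultures, with a change of -0.63 ± 0.30 that did not pass (adjusted p = 0.101, authors' deposited table). The nuclease gene Isg20 (-0.98 ± 0.61), the tetherin gene Bst2 (-0.46 ± 0.66), Ifi27 (-0.32 ± 0.19), Ifi35 (0.48 ± 0.38), Rtp4 (-0.29 ± 0.47) and Xaf1 (-0.0011 ± 0.35) missed that threshold in the authors' deposited table. The 95% interval of Isg20 runs from -2.18 to 0.22 and that of Bst2 from -1.76 to 0.84.

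The signalling members upstream of these genes did not pass in culture. Ifnar1 had 23.5 TPM in WT and 23.1 TPM in Qk-KO cultures (log2 -0.04 ± 0.14, adjusted p = 0.881, authors' deposited table). Ifnar2 (0.33 ± 0.14, adjusted p = 0.0531, authors' deposited table) missed the threshold and passed as higher when libraries were scaled to their totals (adjusted p = 0.0128). Stat2, which with Irf9 carries the type I signal to the nucleus, stood at -0.03 ± 0.18 and Irf9 at -0.09 ± 0.16 in the authors' deposited table. Irf3, the factor that acts directly on Ifit promoters, stood at -0.25 ± 0.15 and Irf1 at -0.08 ± 0.20 in the authors' deposited table. Irf7, the amplifying factor that is itself induced by interferon, was scarce, with 28 to 36 fitted counts per WT library and 27 to 32 per Qk-KO library (-0.26 ± 0.43, authors' deposited table). Of the RNA sensors, Ddx58 stood at -0.40 ± 0.18 (adjusted p = 0.0773), Ifih1 at -0.11 ± 0.23 and the regulator Dhx58 at 0.18 ± 0.63, and Trim25, the ligase that activates the Ddx58 product, stood at -0.49 ± 0.33 in the authors' deposited table.

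Among classic markers of an interferon response, Isg15, Usp18 and the Oas genes were scarce in culture, also in WT. Ifit2, by contrast, stood at 36.8 TPM in WT cultures. Isg15, the ubiquitin-like modifier, had 4 to 5 fitted counts per WT library and 9 to 10 per Qk-KO library, below the mean that carries an adjusted p (log2 0.96 ± 0.69, unadjusted p = 0.166, authors' deposited table). Usp18, which removes Isg15 and dampens receptor signalling, stood at 0.274 and 0.247 TPM (-0.16 ± 0.58, authors' deposited table). The Oas family, which makes an activator of RNase L, summed to 0.348 TPM in WT and 0.242 TPM in Qk-KO cultures over 5 genes. Only Oasl2 was tested (-0.36 ± 0.48, authors' deposited table), and Oas1a had no reads in any of the 6 libraries, which allows up to 0.0114 CPM (3 counts over all libraries, counting error only). Below the tested mean lay Oas2, Oas3, Oasl1 and Ifi44, with means from 1.94 to 8.48 normalized counts. In WT callosum, Isg15 reached 3.91 TPM, Usp18 1.01 TPM and the Oas family 1.60 TPM; levels were not tested between the separately normalized tables.

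In callosum, Irf8, a transcription factor of microglia and other myeloid cells, had fitted counts of 120, 134, 87 and 105 in WT and of 300, 263, 251 and 208 in libraries labelled Qk-KO. It rose 2.81-fold, with a log2 change of 1.49 ± 0.17 in the authors' deposited table (adjusted p = 6.36e-15), and its p ranks 28 among all genes. Most microglia markers rose as well: 12 of 16 (75%, against 2.09% of all genes), with none lower, from a summed 522 to 1179 CPM. Among the risers were Csf1r (0.87), Ctss (1.45) and C1qa (1.54 log2 units, authors' deposited table). The others, Tmem119 (0.10), P2ry12 (0.18), Siglech (0.28) and Itgam (0.74 log2 units, authors' deposited table), did not pass. Of 7 tested border macrophage and leukocyte markers, 2 rose (28.6%, against 2.09% of all genes) and none fell. The 2 were Ptprc (from 5.73 to 19.9 CPM) and Itgax (from 0.363 to 18.5 CPM). Mrc1 (0.13), Cd163 (-0.10), Lyve1 (0.14), Pf4 (-0.20) and Ccr2 (0.29 log2 units, authors' deposited table) did not pass. All 12 genes of that list, tested or not, summed to 20.9 CPM in WT and 54.1 CPM in Qk-KO. In bulk tissue, more cells of a type and more RNA per cell cannot be told apart, and the part of microglia in the Irf8 value was not tested. In culture, Irf8 had 0.154 TPM in WT and did not pass (-0.26 ± 0.50, authors' deposited table). There 6 of the 16 microglia markers, Itgam, Fcrls, Trem2, C1qa, C1qb and C1qc, had no reads.

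The remaining 30 tested members did not pass in callosum, with values between -0.28 (Ifit2) and 0.66 (Parp14) log2 units and errors between 0.10 and 0.52 in the authors' deposited table. Parp14 came nearest (0.66 ± 0.21, adjusted p = 0.0550, authors' deposited table) and passed when libraries were scaled to their totals (adjusted p = 0.0384) or changes were centred on the median gene (adjusted p = 0.0492). Gbp2 (0.50 ± 0.24, unadjusted p = 0.0328) and Irf3 (0.33 ± 0.16, unadjusted p = 0.0465) were the others with an unadjusted p under 0.05 in the authors' deposited table. Ifit2 had fitted counts of 399, 449, 291 and 352 in WT and 293, 257, 245 and 204 in Qk-KO callosum (-0.28 ± 0.20, authors' deposited table). Its 95% interval, -0.68 to 0.11, leaves out a fall of the size seen in culture, and so do the intervals of Ifit3 (-0.45 to 0.70) and Ifit3b (-0.06 to 0.94). Of the receptors, Ifnar1 had 25.7 TPM in WT and 26.8 TPM in Qk-KO (0.06 ± 0.10) and Ifnar2 stood at 0.18 ± 0.14 in the authors' deposited table. Ifi27, at 47.1 TPM in WT the highest of the 38 members in callosum, stood at -0.14 ± 0.13 in the authors' deposited table. Xaf1 carries a change of 0.26 ± 0.33 but no p in the authors' deposited table, and 6 members, Mx1, Ifi44 and 4 Oas genes, lay below the mean that carries an adjusted p.

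**Figure D5:**
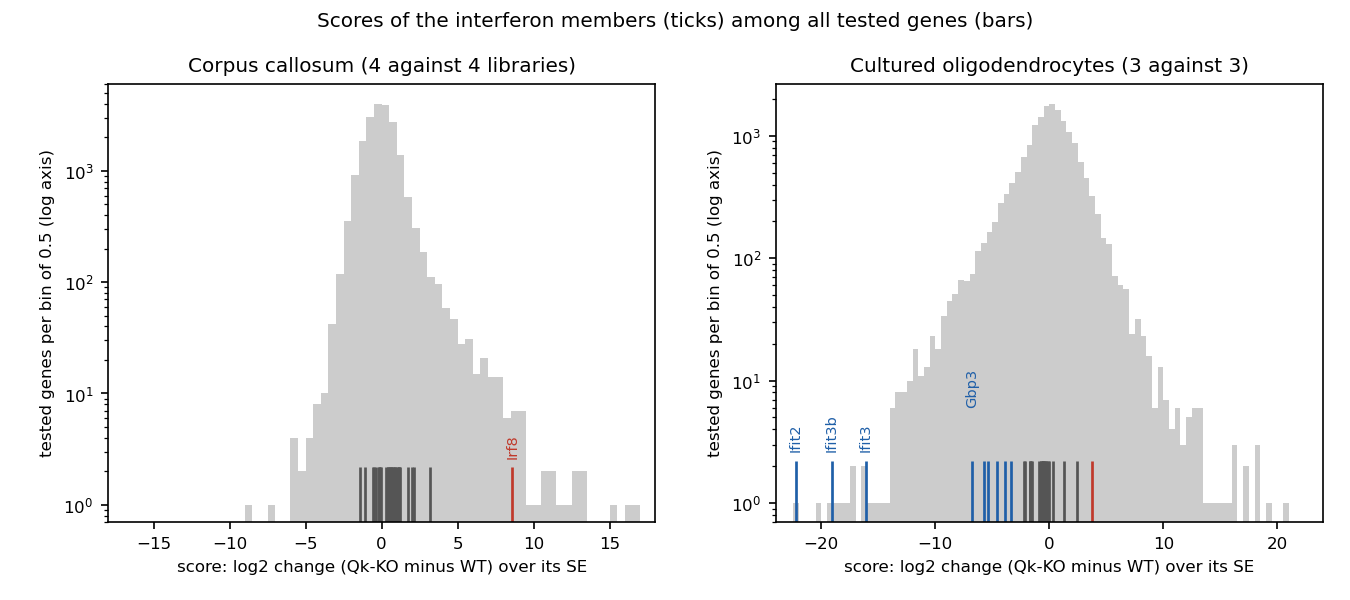
Deposited score (log2 change over its SE, horizontal axis) of all tested genes (bars, log count axis) and of the tested interferon members (ticks; red and blue ticks passed, higher and lower). In culture Ifit2, Ifit3b and Ifit3 lie at the far left edge of the distribution. In callosum no tested member other than Irf8 passed, and Parp14 came nearest.

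The effects in the 2 systems were compared by a z test on the difference of the deposited log2 changes over 16601 genes tested in both. Genes with almost no reads carry small changes and errors, such as Itgax in culture (mean of 0.170 normalized counts, 0.14 ± 0.32, authors' deposited table). Changes may therefore have been drawn toward 0 in each table separately and to unlike degrees, which the z test does not allow for. Of 30 members tested in both, 11 had a lower change in culture than in callosum and 0 a higher one, against 11.7% lower and 9.84% higher (21.5% in either direction) among all genes. Ifit3b differed by -5.27 ± 0.36 log2 units (adjusted p = 2.78e-45, z test), Ifit3 by -5.02 ± 0.42 (7.53e-30) and Ifit2 by -3.34 ± 0.26 (4.75e-35). Ifit1 (-2.75 ± 0.65), Rsad2 (-2.54 ± 0.60), Gbp2 (-1.94 ± 0.34), Parp14 (-1.51 ± 0.33), Gbp3 (-1.41 ± 0.36) and Gbp7 (-1.0 ± 0.28) differed in the same direction. So did Irf8 (-1.75 ± 0.52) and Irf3 (-0.58 ± 0.22, adjusted p = 0.0437), although neither passed in culture on its own. Tissue and culture differ in cell makeup, age and treatment, and these cannot be told apart from the system.

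Other genes of the pathway were read from lists of upstream genes and of further interferon-stimulated genes. Few reads came from the interferon genes on the list. Ifnb1, Ifna1, Ifna2 and Ifna4 had no reads in either table, which allows up to 0.0181 CPM in callosum and 0.0114 CPM in culture, and Ifng had means of 0.416 and 0.305 normalized counts. Ifnk, another type I interferon gene, was tested in culture, at 0.155 CPM in WT and 0.363 CPM in Qk-KO (1.15 ± 0.64, adjusted p = 0.177, authors' deposited table). Of 40 upstream genes outside the set, 31 were tested in each table. In culture 4 fell (12.9%, near the 15.2% of all genes) and 1 rose (3.23%, against 13.3%). The double-stranded RNA receptor gene Tlr3 fell by 2.09 ± 0.22, the sensor adaptor gene Mavs by 0.99 ± 0.17, the MHC class I regulator gene Nlrc5 by 0.91 ± 0.27 and Ifngr1, a receptor chain for interferon gamma, by 0.41 ± 0.14, while the DNA sensor gene Aim2 rose by 2.13 ± 0.52 in the authors' deposited table. Kinases and other parts of the signal relay that did not pass in culture were Jak1 at -0.20 ± 0.15, Jak2 at 0.10 ± 0.17, Tyk2 at -0.01 ± 0.23, Stat3 at -0.19 ± 0.15 and Ifngr2 at 0.11 ± 0.15 in the authors' deposited table. In callosum 5 of the 31 rose (16.1%, against 2.09% of all genes) and none fell. These were the RNA receptor gene Tlr7 (1.15 ± 0.25), Irf5 (0.84 ± 0.21), the DNA-sensing adaptor gene Tmem173 (0.81 ± 0.24), the feedback inhibitor gene Socs3 (0.71 ± 0.22) and Stat3 (0.45 ± 0.13, authors' deposited table). Most microglia markers rose in the same libraries, and some markers of other cell types did too. Of 10 oligodendrocyte markers 4 rose (40%), of 12 astrocyte markers 2 (16.7%) and of 6 precursor markers 1 (16.7%), with none lower. The astrocyte markers were Gfap (2.06 ± 0.19) and Aqp4 (0.69 ± 0.18, authors' deposited table). No neuron, endothelial and mural or fibroblast marker passed. The part of each cell type in these values was not tested.

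Of the further interferon-stimulated genes, 15 of 53 tested in culture fell (28.3%, against 15.2% of all genes) and 5 rose (9.43%, against 13.3%), with a median of -0.39 log2 units. Lgals3bp (-2.30 ± 0.44), Gbp5, Casp1 (-1.35 ± 0.39), Tor3a, Gbp6 and Irgm1, a GTPase of autophagy, were among those that fell most, and Helz2 (1.76 ± 0.35) and Ly6e (1.31 ± 0.37) rose in the authors' deposited table. In callosum, 0 of 73 passed by the authors' DESeq2 test, and 7 had an unadjusted p under 0.05, with a median of 0.08.

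Markers of other cell types moved with the falls in culture. Among all tested genes there, 15.2% fell and 13.3% rose. Of 12 astrocyte markers, 10 fell (83.3%) and none rose, from a summed 14374 to 4286 CPM, and none of the 12 was at 0. The highest by the mean over both genotypes were Gfap (-3.37), Gja1 (-2.23), Aqp4 (-1.22) and Aldoc (-0.39 log2 units, which did not pass, authors' deposited table). Of 6 neuron markers, 5 rose (83.3%) and none fell, from 736 to 1725 CPM. Of 10 oligodendrocyte markers, 2 rose and 2 fell (20% each, near the shares of all genes), from 2805 to 2215 CPM. Of 6 precursor markers, 2 rose and 2 fell (33.3% each), from 3155 to 3472 CPM. The part of changed cell makeup in the falls of Ifit and Gbp genes was not tested. Border macrophage and leukocyte markers summed to 1.69 CPM in WT and 1.31 CPM in Qk-KO cultures. Endothelial and mural markers summed to 10.1 and 6.58 CPM, with the tight junction gene Cldn5 at 0, and fibroblast markers to 0.274 and 0.244 CPM.

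Quaking binds RNA at an ACTAA core followed by C or T, with a TAAC or TAAT nearby. In the longest coding transcript of each gene, this bipartite element, with 1 to 20 bases between its parts in either order, occurred in 4 of 32 members tested in culture (12.5%), against 17.4% of 13895 protein-coding genes tested there, whose median transcript is 3224 bases against 2626.5 for the members. Of the 9 members that fell, Gbp2, Gbp7 and Parp14 held it, and none of the 4 Ifit genes did. A match is a description of letters and no measured binding.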

How the data were processed

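RNA-seq of 14 mouse libraries was deposited as 2 tables, 1 per system. FastQC, TopHat2 2.0.14, featureCounts, DESeq2 and mm10 are named in the submitters' processing notes; for annotation, strand setting and model design, the sources used here give nothing. The deposited library columns are log2 values of fitted means plus 1: within a genotype they differ by 1 constant factor at every gene, within 1e-09. The mean column was deposited as a normalized signal (mean counts after size-factor scaling). The log2 fold change (turned here to Qk-KO minus WT), its error, the score (their ratio) and the p-value columns, all as deposited by the authors, gave the calls, at an adjusted p under 0.05 from the authors' DESeq2 Wald test. Counts could not be refitted, since fitted means carry no replicate spread.

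Fitted CPM, and TPM with GENCODE M21 exonic lengths (46488 of 46983 identifiers matched), were computed with Python 3.11.15 (pandas 2.3.3, scipy 1.17.1, matplotlib 3.10.9). The difference between systems was a two-sided z test with Benjamini-Hochberg adjustment, tested on simulated data. Without a strand setting, reads of the 8 members that overlap another gene's exons on the opposite strand cannot be told apart from that gene's. Read length is not given, so 50-base words stand in for reads. Alternatives were library-total scaling, median centring, no filter on low means, a Student reference, a threshold of 0.01, a minimum of 2-fold and leaving out close copies. The members and lists were chosen with earlier results of these data known. Named genes are all members, called genes of the pathway lists with the largest changes, the receptor-to-STAT chain and up to 4 abundant markers per list; cluster neighbours, quaking elements and shared words were added after values were seen. Values of some single genes of the pathway and marker lists are not reported here.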

Additional observations from a re-analysis of the deposited data

Results flagged for a closer look

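Of the 30 members tested in both systems, 11 had Qk effects that differed between culture and callosum by the z test on the deposited changes (two-sided, adjusted over 16601 genes). All 11 were lower in culture (36.7%). Among all genes tested in both, 11.7% were lower in culture and 9.84% higher. The difference, culture minus callosum, was -5.27 log2 units for Ifit3b, -5.02 for Ifit3, -3.34 for Ifit2, -2.75 for Ifit1 and -2.54 for Rsad2. It was -1.94 for Gbp2, -1.75 for Irf8, -1.51 for Parp14, -1.41 for Gbp3, -1.0 for Gbp7 and -0.58 for Irf3. For Irf8 the difference came from a rise in callosum, and for the Ifit and Gbp genes and Rsad2 from falls in culture. Parp14 had opposite signs in the 2 systems, 0.66 in callosum and -0.84 in culture.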

How the results depend on the processing

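The 9 falls in culture were 9 under library-total scaling, median centring, no filter on low means and the 0.01 threshold. They were 7 at 2-fold or more (21.9% of 32 tested). Over all genes, 2667 fell in the main setting and 2296, 2746, 2468 and 1998 under those 4 alternatives in turn. At 2-fold or more, 1118 of 17503 tested genes fell. Leaving out the members set apart as close copies gave 4 falls (16.7% of 24 tested, against 15.2% of all genes) and 0 rises in culture. Those members may share reads to unlike degrees. Of their 50-base words, 51.2% occur in other genes for Ifit3 and 12.7% for Gbp7. The share is 2.03% for Gbp2, 3.75% for Gbp3 and 3.91% for Mx1, while Ifit1, at 7.13%, was kept. A Student reference with 4 degrees of freedom in culture and 6 in callosum, in place of the normal one, gave 0 falls and 0 rises in culture, where the smallest adjusted p was 0.0570 for Ifit2, Ifit3 and Ifit3b, and 0 rises in callosum. Over the whole table that reference passed 0 genes in culture, and 8 higher and 0 lower in callosum. Rises in callosum numbered 2 under library-total scaling and 2 under median centring, in place of 1, and rises in culture numbered 2 under library-total scaling. Over all genes, rises in callosum numbered 454 and 431 under these alternatives, in place of 417. Those in culture numbered 3054 under library-total scaling, in place of 2336. No gene that passed changed sign. Changes near 0 did under library-total scaling: Stat2 to 0.0172 in callosum and 0.0477 in culture, Ifnar1 to 0.0373, Oas3 to 0.0373 and Xaf1 to 0.0762 in culture. Stat2 in callosum went to 0.0018 under median centring. The differences between systems numbered 10 or 11 under library-total scaling, median centring, no filter on low means and the 0.01 threshold. The Student reference, the 2-fold minimum and the leaving out of close copies were not applied to them. No paired analysis was possible because the library columns are fitted means without replicate spread, and for the same reason no library could be left out and no count test (TMM or DESeq2 size factors) was run. A WT culture library holds 4 to 5 fitted counts of Isg15, which limits what could be detected for the scarcest members.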
